A study of Homo sapiens with 12 samples.

Results

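The response of cells to low oxygen and the breakdown of glucose to lactate are described here through 43 human genes, taken by symbol from a given list. All 43 were found among the 60504 features of the expression table. By role, 5 take part in oxygen sensing, 16 are known hypoxia targets outside glycolysis, 6 carry glucose or lactate or regulate glycolysis, and 16 encode glycolytic enzymes. Levels came from sequencing of polyadenylated RNA in 12 libraries, 4 groups with 3 biological replicates each. The study asked how mutant NSD2, a histone methyltransferase, alters gene expression. All libraries came from TKO cells, a derivative of the multiple myeloma line KMS-11 whose genotype is labelled WHSC1(+/-), WHSC1 being an older name of NSD2. D1240A cells carried an expression vector for NSD2 with the substitution p.D1240A, F1295A cells a vector for NSD2 p.F1295A, WT cells a vector for unsubstituted NSD2, and TKO cells no vector. The labels name no treatment and no change of oxygen, and they do not say whether a group is a clone or a pool. TKO cells with an empty vector were not analysed here, so NSD2 expression and the presence of a vector cannot be told apart in comparisons with TKO.

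Hypoxia-inducible factor (HIF) pairs an alpha subunit, HIF-1 alpha or HIF-2 alpha, with a stable beta subunit. While oxygen is present, prolyl hydroxylases of the EGLN family mark the alpha subunit and the VHL ubiquitin ligase removes it. When oxygen is short, HIF binds short DNA elements and raises genes of glucose uptake, glycolysis, mitophagy and angiogenesis. Myeloma cells, like many tumour cells, also run glycolysis when oxygen is present.

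NSD2 mRNA averaged 251 ± 8.51 FPKM in D1240A, 164 ± 6.57 FPKM in F1295A and 190.5 ± 3.87 FPKM in WT, against 60.1 ± 2.25 FPKM in TKO (SD, n = 3 each). D1240A thus carried more NSD2 mRNA than WT (log2 difference 0.39) and F1295A less (log2 difference -0.22), and the part of this in the results below was not tested. FPKM count fragments per length of transcript and per size of library, here rescaled between libraries. Depth, estimated from the spacing of low values, was about 32900000 to 60200000 fragments per library. D1240A replicate 2 stood apart, with 51.4% of its deposited FPKM in ribosomal RNA features, against 0.133% to 0.995% in the other libraries. Of 10 plasma cell markers, 7 were at 1 FPKM or more in all libraries, but the defining marker SDC1 lay at 0.129 to 0.369 FPKM in the vector lines, against 3.83 to 4.29 FPKM in TKO. The 10 markers summed to 3893 to 4219 FPKM in D1240A, 4701 to 5113 FPKM in F1295A and 4744 to 4978 FPKM in WT, against 2410.4 to 2619 FPKM in TKO. Singly they went both ways by the limma test described below. Against TKO, 5 were higher and 4 lower in WT (25.9% and 23.9% of all tested genes). The counts were 6 and 2 in D1240A (23.3% and 21.2%), and 5 and 4 in F1295A (23.9% and 21.8%). The part of these markers in the results was not tested. Markers of mature B cells, T cells, myeloid cells, stroma and erythroid cells summed to at most 4.0 FPKM per list in any library. In RNA from whole cultures, fewer cells of a type and less RNA per cell cannot be told apart.

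A log2 change is the difference of mean log2(FPKM + 0.5) between groups, given with its standard error (SE). A gene was called higher or lower at an adjusted p under 0.05 (limma, Benjamini-Hochberg over all 14391 tested genes). Of the 43 genes, 40 reached 0.5 FPKM in at least 3 libraries and were tested. Among them PFKFB4 and P4HA2 passed that filter through the vector lines and ADM through TKO, so these 3 had to differ from TKO and lend the counts no support. The untested genes were near 0 throughout. EPAS1, the HIF-2 alpha subunit, lay at 0 to 0.264 FPKM, EGLN3, an oxygen-dependent prolyl hydroxylase, at 0 to 0.0803 FPKM, and CA9, a carbonic anhydrase of the cell surface, at 0 to 0.0197 FPKM. In these libraries 1 fragment per kilobase is worth 0.0166 to 0.0304 FPKM.

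Hypoxia and glycolysis genes were mostly higher in WT, the line with the unsubstituted NSD2 vector, than in TKO, and against WT more of them were lower than higher in both mutant lines. In WT against TKO, 30 of the 40 tested genes were called higher, where 25.9% of all tested genes were, and 1 was called lower, where 23.9% were. Their median log2 change was 0.36, against -0.01 over all tested genes. All 3 WT libraries lay above all 3 TKO libraries for 31 of the 40 genes (30.5% of all tested genes) and below them for 3 (29.8%). When each library was left out in turn, 26 of the 30 calls held throughout, EGLN1, VHL, SLC2A1 and TPI1 being lost in at least 1 of the 12 refits. In D1240A against TKO, 24 genes were called higher (background 23.3%) and 3 lower (background 21.2%), with a median of 0.27 against 0.01. In F1295A against TKO, 19 were called higher (background 23.9%) and 6 lower (background 21.8%), with a median of 0.10 against 0.00. These 3 comparisons share the TKO libraries, and 49.7% (WT), 44.5% (D1240A) and 45.7% (F1295A) of all tested genes were called in either direction.

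The direct comparison of each mutant with WT has a far smaller background. In F1295A against WT, 16 of the 40 tested genes were called lower, where 1.81% of all tested genes were. None was called higher, where 0.896% were (2.71% in either direction). An unadjusted p under 0.05 in either direction was found for 32 of the 40, against 2330 of all 14391 tested genes. All 3 F1295A libraries lay below all 3 WT libraries for 29 of the 40 genes, an ordering seen in 12.7% of all tested genes, and above them for 1 gene (10.2% of all). In D1240A against WT, 21 were called lower (background 10.9%) and 3 higher (background 8.22%), with 24 of 40 entirely below WT (background 18.7%). Median log2 changes were -0.22 in F1295A and -0.21 in D1240A, against 0.00 and 0.01 over all tested genes. Both comparisons share the 3 WT libraries, which also enter WT against TKO, so these results are not independent of one another. Fewer genes were called between the mutants. In D1240A against F1295A, 5 genes were called higher (background 3%), with a median of 0.03 against 0.00. None was called lower by limma, where 3.09% of tested genes were (6.09% in either direction). An unadjusted p under 0.05 in either direction was seen in 16 of 40, against 3248 of all 14391 tested genes. Leaving out F1295A replicate 2, WT replicate 1 or WT replicate 2 reduced the 16 calls of F1295A against WT to 10, and leaving out F1295A replicate 2 reduced the 5 calls between the mutants to 2, as leaving out D1240A replicate 2 did to 3.

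**Figure D1:**
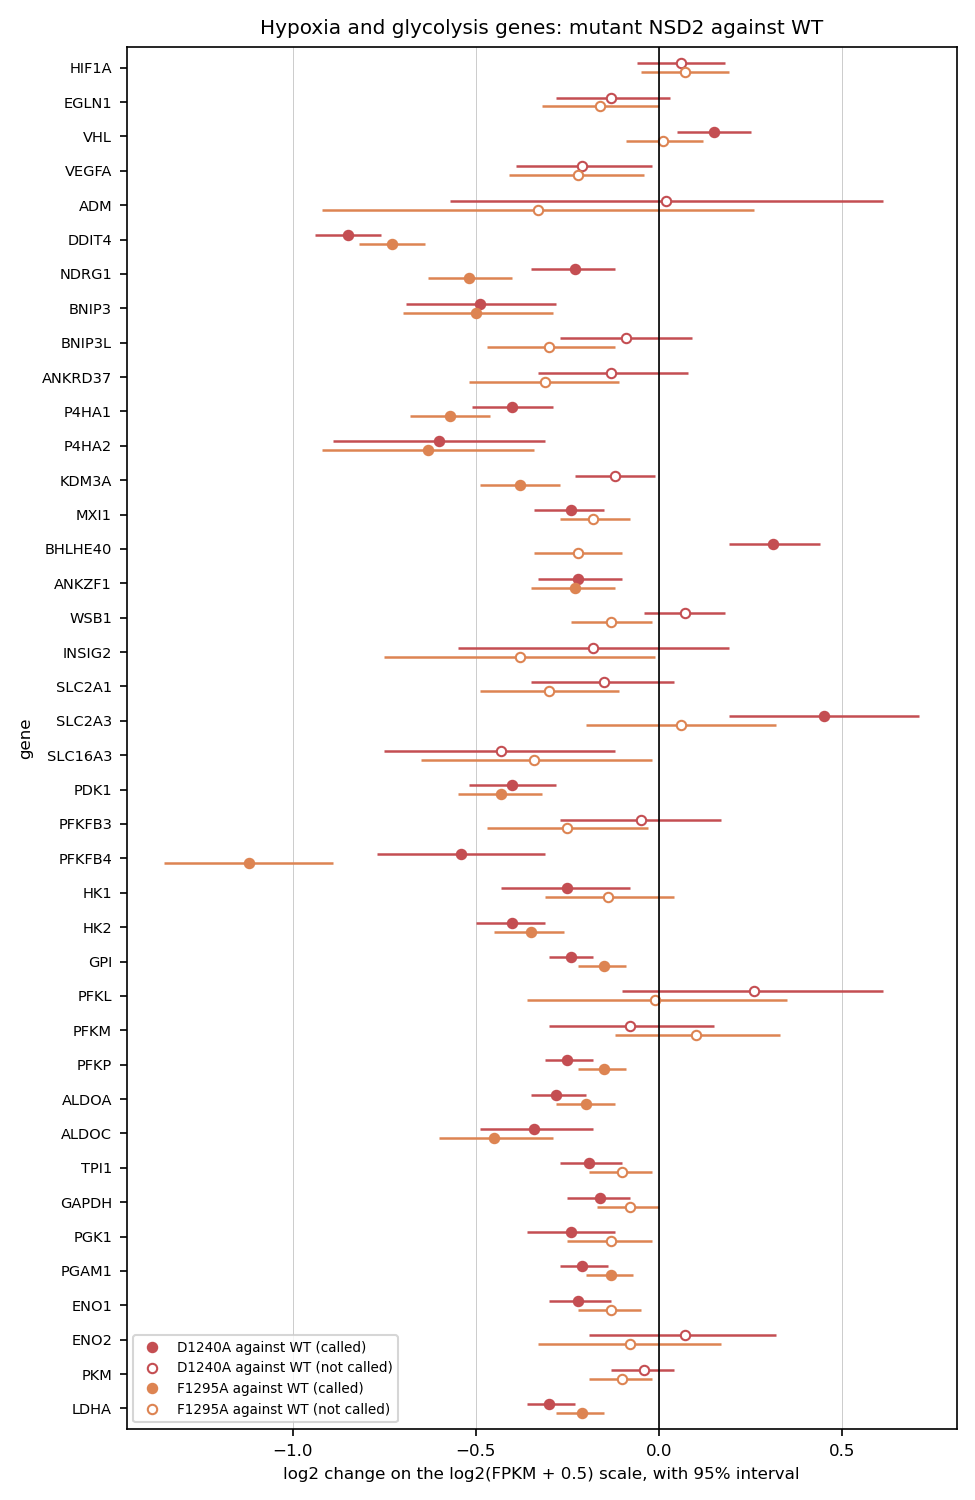
Log2 change of each tested gene in D1240A (upper point) and F1295A (lower point) against WT, with 95% intervals, filled where called. Most points lie left of 0, PFKFB4 in F1295A furthest at -1.12. The points of BHLHE40 fall on opposite sides, 0.31 in D1240A (called) and -0.22 in F1295A (not called).

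**Figure D2:**
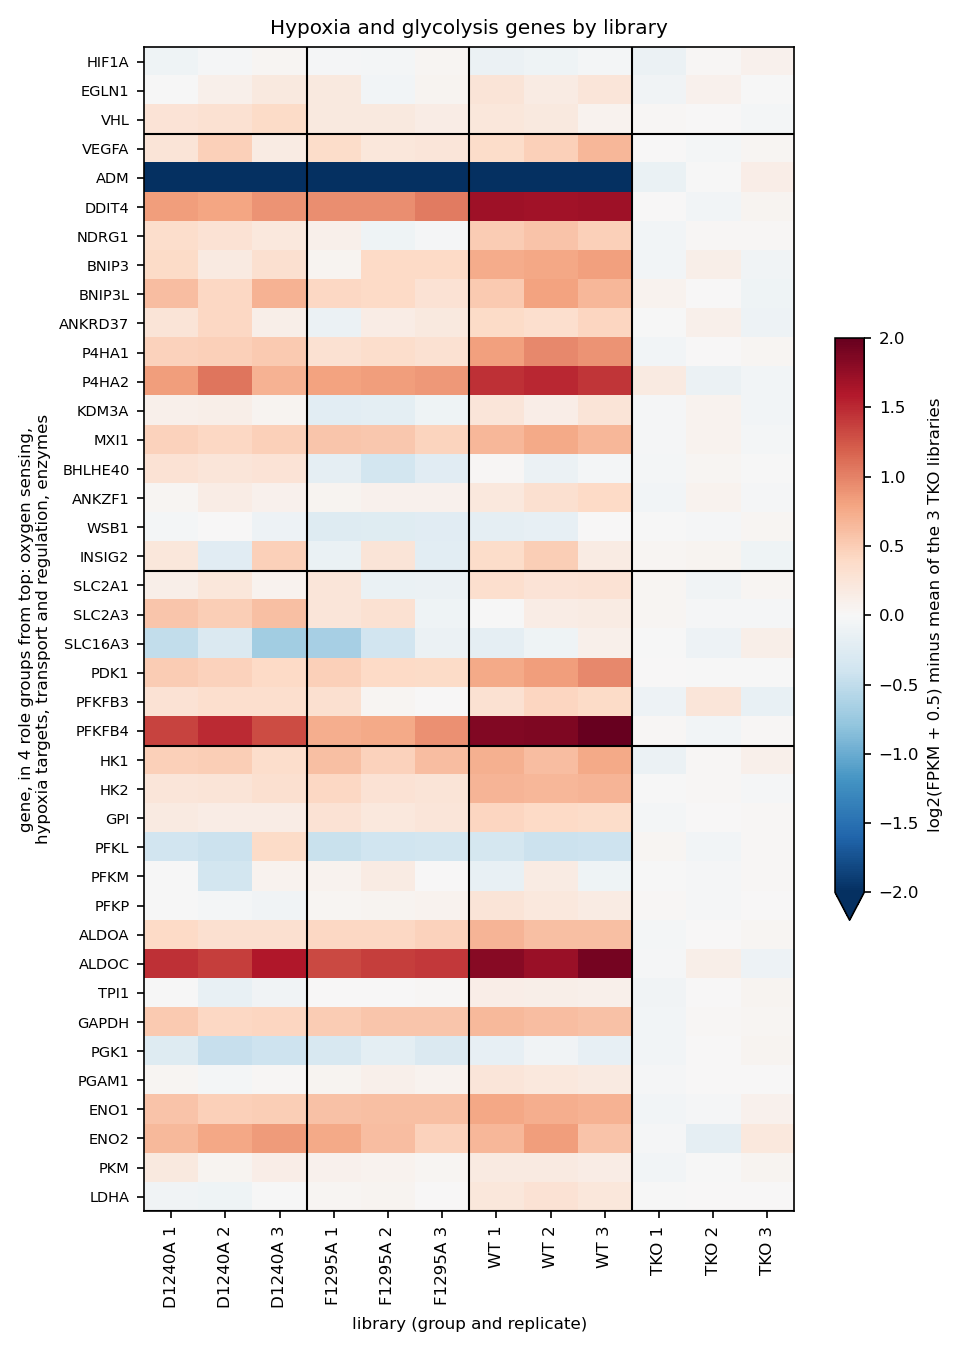
Each row is a tested gene and each column a library (D1240A, F1295A, WT, TKO). Colour gives log2(FPKM + 0.5) minus the mean of the 3 TKO libraries, with values below -2 drawn at the end of the scale. Horizontal lines part the role groups. WT columns are the reddest for most genes, the mutants are paler, and ADM is the row that is deep blue in all 9 vector-line libraries.

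Promoters of the 5 genes with the largest changes between WT and TKO are shown because these members moved furthest, 4 of them up and ADM down. The core of the HIF binding element was searched as ACGTG or GCGTG on both strands, so its complements CACGT and CACGC also count, and matches that overlap on opposite strands are counted separately. Windows run from 250 bases before to 50 bases after a RefSeq start (GRCh38.p14), written 5′ to 3′ on the gene's strand, with capitals marking the matches. They cover chr3:48556754-48557053 on the minus strand for PFKFB4, with 1 match.
PFKFB4: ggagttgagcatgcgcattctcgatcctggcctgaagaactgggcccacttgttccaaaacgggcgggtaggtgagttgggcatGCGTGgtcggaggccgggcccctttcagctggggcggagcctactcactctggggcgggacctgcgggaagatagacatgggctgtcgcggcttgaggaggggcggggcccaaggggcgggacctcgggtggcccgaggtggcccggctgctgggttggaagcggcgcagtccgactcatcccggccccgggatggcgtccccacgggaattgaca
For ALDOC the window is chr17:28576846-28577145 on the minus strand, with 5 matches, an overlapping pair of them near its 5′ end.
ALDOC: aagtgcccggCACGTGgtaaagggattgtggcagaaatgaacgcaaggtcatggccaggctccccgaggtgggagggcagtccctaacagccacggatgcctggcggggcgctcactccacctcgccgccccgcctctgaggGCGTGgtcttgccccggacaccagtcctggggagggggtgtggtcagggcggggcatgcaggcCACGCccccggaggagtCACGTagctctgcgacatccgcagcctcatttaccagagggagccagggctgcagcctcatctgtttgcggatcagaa
For DDIT4 it is chr10:72273674-72273973 on the plus strand, with 4 matches.
DDIT4: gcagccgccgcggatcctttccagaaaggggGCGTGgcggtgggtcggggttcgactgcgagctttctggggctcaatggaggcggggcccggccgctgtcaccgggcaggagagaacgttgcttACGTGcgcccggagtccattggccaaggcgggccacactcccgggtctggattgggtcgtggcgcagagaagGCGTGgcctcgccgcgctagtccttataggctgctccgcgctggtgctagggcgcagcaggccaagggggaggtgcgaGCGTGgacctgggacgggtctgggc
For P4HA2 it is chr5:132227042-132227341 on the minus strand, with 0 matches.
P4HA2: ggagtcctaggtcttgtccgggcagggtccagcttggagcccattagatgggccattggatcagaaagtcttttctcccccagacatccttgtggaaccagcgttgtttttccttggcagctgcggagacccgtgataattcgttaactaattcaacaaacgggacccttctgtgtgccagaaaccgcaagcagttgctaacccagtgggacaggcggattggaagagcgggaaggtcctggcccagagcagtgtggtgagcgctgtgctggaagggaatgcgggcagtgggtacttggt
For ADM it is chr11:10304823-10305122 on the plus strand, with 1 match.
ADM: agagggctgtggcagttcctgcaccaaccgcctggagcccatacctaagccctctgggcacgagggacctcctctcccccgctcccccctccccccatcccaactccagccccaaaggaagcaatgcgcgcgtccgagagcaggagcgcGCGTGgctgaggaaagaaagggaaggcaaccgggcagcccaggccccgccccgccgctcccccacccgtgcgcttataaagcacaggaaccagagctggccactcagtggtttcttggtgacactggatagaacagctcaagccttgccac
Of the 43 genes, 37 had at least 1 window in the RefSeq table, 68 windows in all. The motif occurred in 47 of these 68 windows (69.1%), against 17012 of all 35116 windows of the same length (48.4%). ANKZF1, BNIP3L, NDRG1, SLC2A3, VEGFA and VHL had no entry. The motif is short and rich in CG, and a match is a description of the letters, not a binding site.

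Of the oxygen sensors, HIF1A mRNA did not pass the test in any comparison. HIF1A, the oxygen-regulated subunit of HIF-1, measured 16.1, 16.9 and 17.6 FPKM in D1240A, 16.8, 16.7 and 17.6 FPKM in F1295A, 15.7, 16.1 and 16.7 FPKM in WT, and 15.8, 17.5 and 18.2 FPKM in TKO. The F1295A libraries lay just above the WT libraries, and every other pair of groups overlapped. Its log2 changes ran from -0.08 ± 0.055 (SE) in WT against TKO to 0.07 ± 0.055 in F1295A against WT, with adjusted p of 0.244 or above. Leaving out TKO replicate 1, the lowest TKO library, gave a call in WT against TKO (-0.14, adjusted p = 0.0455).

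EGLN1, the main oxygen-sensing prolyl hydroxylase and itself a HIF target, measured 15.1, 16.3 and 17.5 FPKM in D1240A, 17.5, 14.6 and 15.8 FPKM in F1295A, 18.3, 17.1 and 18.1 FPKM in WT, and 14.5, 16.2 and 15.1 FPKM in TKO. The WT libraries lay above all TKO libraries, while both mutants overlapped TKO. It was called higher in WT than in TKO (0.22 ± 0.071, adjusted p = 0.0211), a call lost without WT replicate 1 or 3 or TKO replicate 1 or 3 (adjusted p 0.0579 to 0.0829). VHL, the substrate receptor of the ligase that removes hydroxylated HIF alpha, measured 18.7, 19.0 and 20.1 FPKM in D1240A, 17.7, 17.7 and 17.0 FPKM in F1295A, 18.1, 17.7 and 16.2 FPKM in WT, and 15.7, 15.4 and 15.0 FPKM in TKO. All vector-line libraries lay above TKO, and D1240A was the highest group. VHL rose in D1240A (0.32 ± 0.047, adjusted p = 2.1e-04), F1295A (0.18 ± 0.047, adjusted p = 0.00855) and WT (0.17 ± 0.047, adjusted p = 0.0122) against TKO, the last call being lost without WT replicate 1 (0.14, adjusted p = 0.0548). Its call in D1240A against WT (0.15, adjusted p = 0.046) was lost when any of 10 libraries was left out (adjusted p up to 0.166). Of 13 further oxygen-sensing genes, 11 were tested, and 5 were called higher (background 25.9%) and 1 lower (background 23.9%) in WT against TKO. HIF1AN, the asparaginyl hydroxylase that limits HIF activity, rose most, by 0.74 in D1240A, 0.55 in F1295A and 0.49 in WT.

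Hypoxia targets outside glycolysis held the widest range of changes, with 11 of 15 tested members called higher and 1 lower in WT against TKO (group median 0.50, backgrounds 25.9% and 23.9%). D1240A against TKO had 10 higher and 1 lower (median 0.28, backgrounds 23.3% and 21.2%). F1295A against TKO had 7 higher and 4 lower (median 0.07, backgrounds 23.9% and 21.8%), the lower calls being near their background. DDIT4, an inhibitor of mTORC1 signalling on chromosome 10 (72273920 to 72276036, GENCODE 29 on GRCh38), showed the clearest steps. It measured 66.8, 65.0 and 70.3 FPKM in D1240A, 71.4, 71.7 and 77.2 FPKM in F1295A, 122, 121 and 122 FPKM in WT, and 37.4, 35.8 and 38.8 FPKM in TKO. No library of WT, of the mutants or of TKO overlapped another of these levels. DDIT4 rose by 1.69 ± 0.041 in WT against TKO (adjusted p = 5.7e-11). Both mutants rose less, by 0.84 ± 0.041 in D1240A and 0.97 ± 0.041 in F1295A against TKO. Against WT, it fell by 0.85 in D1240A (adjusted p = 4.2e-07) and by 0.73 in F1295A (adjusted p = 2.1e-05).

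The collagen prolyl 4-hydroxylase subunits, enzymes that modify procollagen and are known HIF targets, were likewise highest in WT and lowest in TKO. P4HA1 measured 8.99, 9.10 and 9.43 FPKM in D1240A, 7.96, 8.32 and 7.96 FPKM in F1295A, 11.7, 12.9 and 12.3 FPKM in WT, and 6.14, 6.41 and 6.59 FPKM in TKO. None of the 4 groups overlapped another. P4HA1 rose by 0.89 ± 0.050 in WT against TKO (adjusted p = 4.7e-08) and fell by 0.40 in D1240A (adjusted p = 2.7e-04) and by 0.57 in F1295A (adjusted p = 2.0e-04) against WT. P4HA2, on chromosome 5 (132191838 to 132295315), was expressed at a much lower level. It measured 0.684, 0.886 and 0.566 FPKM in D1240A, 0.649, 0.682 and 0.707 FPKM in F1295A, 1.32, 1.38 and 1.28 FPKM in WT, and 0.249, 0.105 and 0.135 FPKM in TKO. The mutants overlapped each other and lay between WT and TKO. P4HA2 rose by 1.47 ± 0.13 in WT, 0.87 ± 0.13 in D1240A and 0.84 ± 0.13 in F1295A against TKO, and fell by 0.60 in D1240A against WT (adjusted p = 0.00907). P4HA2 passed the filter through the vector lines, so its calls against TKO lend the counts no support. At these levels the size depends on the pseudocount: with 0.1 in place of 0.5 the WT change was 2.48. The D1240A and F1295A changes from TKO were 1.65 and 1.60 with 0.1, and 0.56 and 0.53 with 1. Its call in F1295A against WT (-0.63, adjusted p = 0.0289) was lost when any of the 3 F1295A or 3 WT libraries was left out (adjusted p 0.0749 to 0.106).

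**Figure D3:**
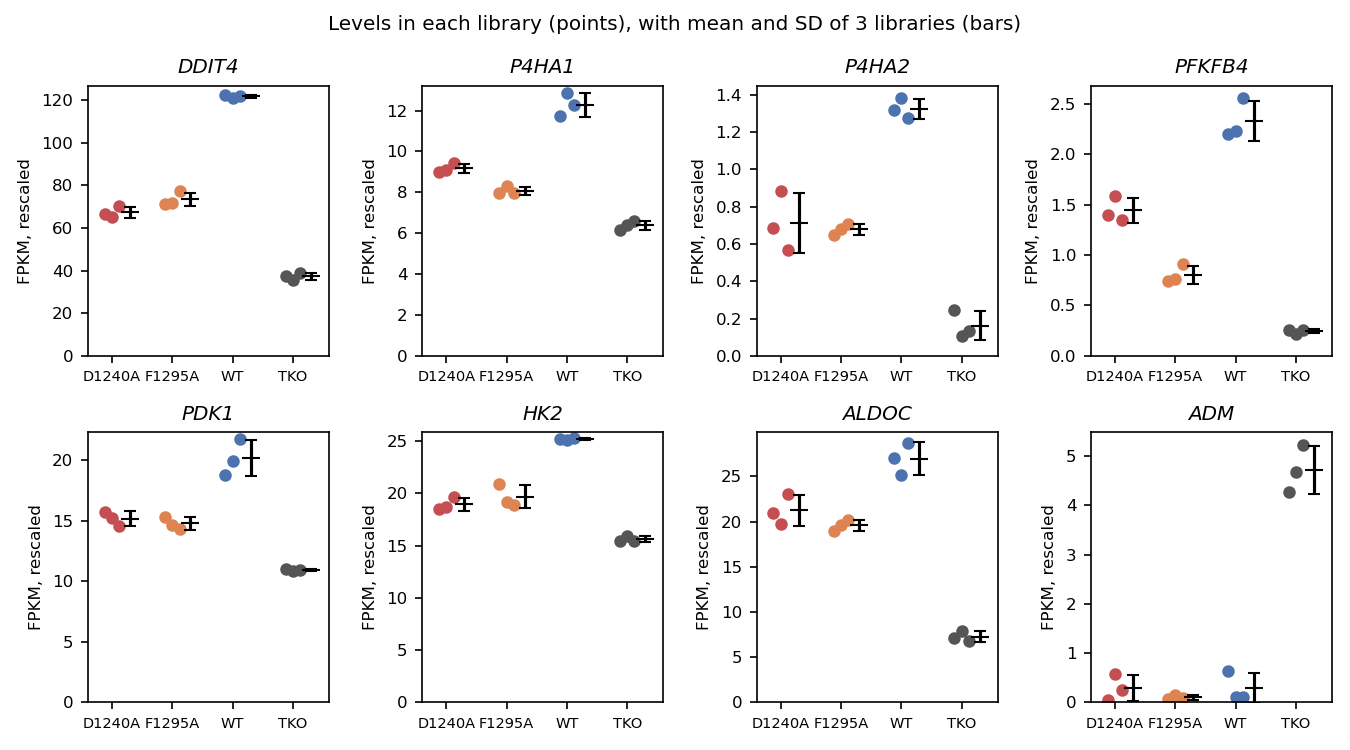
Rescaled FPKM (linear axes from 0) of 8 genes in each library as points, with the mean and SD of 3 libraries as bars, for D1240A, F1295A, WT and TKO. In 7 panels WT is the highest group and TKO the lowest, with DDIT4 at 122 FPKM in WT and 37.3 FPKM in TKO. In the ADM panel TKO stands alone above all vector lines.

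MXI1, a repressor that competes with MYC for MAX, measured 31.9, 31.1 and 32.4 FPKM in D1240A, 34.4, 34.0 and 31.6 FPKM in F1295A, 37.1, 39.3 and 36.9 FPKM in WT, and 22.8, 24.3 and 22.4 FPKM in TKO. WT lay above the overlapping mutants, and all vector lines lay above TKO. It rose by 0.69 ± 0.044 in WT against TKO (adjusted p = 1.4e-07) and fell by 0.24 in D1240A against WT (adjusted p = 0.003), while F1295A against WT was -0.18 (adjusted p = 0.0594). BNIP3, a receptor for mitophagy, measured 9.61, 8.28 and 9.20 FPKM in D1240A, 7.58, 9.79 and 9.70 FPKM in F1295A, 12.5, 12.7 and 13.3 FPKM in WT, and 7.02, 7.93 and 6.92 FPKM in TKO. WT stood above every other library, and F1295A replicate 1 fell within the TKO range. BNIP3 rose by 0.78 ± 0.093 in WT against TKO (adjusted p = 2.7e-05) and fell by 0.49 in D1240A (adjusted p = 0.00393) and by 0.50 in F1295A (adjusted p = 0.0176) against WT, the F1295A call being lost when any WT library was left out (adjusted p 0.0520 to 0.0723). Its calls in D1240A (0.29) and F1295A (0.28) against TKO were lost when TKO replicate 1 or 3 or either of a pair of libraries of the same mutant was left out (adjusted p 0.0633 to 0.103). BNIP3 has processed pseudogenes whose summed FPKM reached 38.8% of its own, so reads may be shared between them. Genes next to both on chromosome 10 moved too, as given below.

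NDRG1, BHLHE40, KDM3A and WSB1 were called higher in D1240A than in F1295A. NDRG1, a cytosolic protein induced by stress, measured 34.8, 33.2 and 31.6 FPKM in D1240A, 29.2, 25.6 and 26.8 FPKM in F1295A, 38.8, 40.4 and 38.0 FPKM in WT, and 26.04, 27.8 and 27.8 FPKM in TKO. D1240A lay between WT and TKO, whereas F1295A lay at the TKO level. NDRG1 rose by 0.52 ± 0.053 in WT against TKO (adjusted p = 7.4e-06), was 0.00 ± 0.053 in F1295A against TKO, and fell by 0.23 in D1240A (adjusted p = 0.0107) and by 0.52 in F1295A (adjusted p = 6.6e-04) against WT. The difference between D1240A and F1295A was 0.28 ± 0.053 (adjusted p = 0.0126), a call lost without F1295A replicate 2 (0.24, adjusted p = 0.0532). BHLHE40, a transcriptional repressor of the basic helix-loop-helix class, measured 15.0, 14.5 and 14.7 FPKM in D1240A, 10.6, 9.23 and 10.3 FPKM in F1295A, 12.4, 11.2 and 11.7 FPKM in WT, and 11.8, 12.5 and 12.1 FPKM in TKO. D1240A stood above all other libraries and F1295A below all, while WT overlapped TKO. BHLHE40 rose by 0.27 ± 0.056 in D1240A (adjusted p = 0.00215) and fell by 0.26 in F1295A (adjusted p = 0.00255) against TKO, and D1240A exceeded F1295A by 0.53 ± 0.056 (adjusted p = 4.2e-04).

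KDM3A, a histone H3 lysine 9 demethylase, measured 22.3, 22.5 and 21.6 FPKM in D1240A, 17.8, 18.0 and 19.5 FPKM in F1295A, 24.6, 22.8 and 24.9 FPKM in WT, and 20.5, 21.8 and 19.9 FPKM in TKO. F1295A held the lowest libraries and WT the highest. KDM3A rose by 0.21 ± 0.051 in WT against TKO (adjusted p = 0.00434) and fell by 0.38 in F1295A against WT (adjusted p = 0.00299). It also fell by 0.16 in F1295A against TKO (adjusted p = 0.0201), a call lost without F1295A replicate 1 or 2 or TKO replicate 2 (adjusted p 0.0661 to 0.0838). D1240A exceeded F1295A by 0.26 ± 0.051 (adjusted p = 0.0152), lost without D1240A replicate 2 or F1295A replicate 2 (adjusted p 0.0526 and 0.0628). WSB1, a substrate receptor of a ubiquitin ligase, measured 27.6, 28.5 and 26.3 FPKM in D1240A and 23.4, 23.9 and 24.0 FPKM in F1295A. It measured 24.9, 25.2 and 28.2 FPKM in WT, and 27.9, 27.6 and 29.1 FPKM in TKO. F1295A lay below all other libraries, while D1240A overlapped WT and TKO. Against TKO, WSB1 fell by 0.24 ± 0.049 in F1295A (adjusted p = 0.00164) and did not pass in D1240A (-0.04 ± 0.049). The WSB1 call in D1240A against F1295A (0.20 ± 0.049, adjusted p = 0.0363) was lost when any of 7 libraries was left out (adjusted p 0.0508 to 0.115).

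ADM, the precursor of the vasodilator peptide adrenomedullin and a classical hypoxia target, was the only 1 of the 40 tested genes of the set called lower in WT against TKO. On chromosome 11 (10304680 to 10307397), it measured 0.0495, 0.578 and 0.248 FPKM in D1240A, 0.0599, 0.161 and 0.0797 FPKM in F1295A, 0.635, 0.109 and 0.117 FPKM in WT, and 4.26, 4.67 and 5.22 FPKM in TKO. TKO stood far above all vector-line libraries, which overlapped one another. ADM fell by 2.77 ± 0.27 in D1240A (adjusted p = 6.4e-06), and fell by 3.12 ± 0.27 in F1295A (adjusted p = 2.1e-06) and by 2.79 ± 0.27 in WT (adjusted p = 4.5e-06) against TKO, on a log2(FPKM + 0.5) scale that understates changes of such low values. ADM passed the filter through TKO, so its calls against TKO lend the counts no support. It passed in no comparison between vector lines, D1240A against WT being 0.02 ± 0.27 and F1295A against WT -0.33 ± 0.27. The remaining tested members of the group were VEGFA, the angiogenic growth factor, BNIP3L, a further mitophagy receptor, ANKRD37, an ankyrin repeat protein, ANKZF1, which acts in ribosome quality control, WSB1 and INSIG2, which retains the sterol sensor complex. They lay between 4.15 FPKM (INSIG2) and 35.1 FPKM (VEGFA). VEGFA, BNIP3L, ANKRD37 and ANKZF1 rose in WT against TKO, by 0.31 to 0.66, while INSIG2 (0.34 ± 0.17) and WSB1 (-0.11 ± 0.049) did not pass. INSIG2 passed without D1240A replicate 2 (adjusted p = 0.0422) and WSB1 without WT replicate 3 (-0.17, adjusted p = 0.00905). An antisense transcript that shares 188 exonic bases with VEGFA averaged 7.51 FPKM in D1240A, 11.8 in F1295A and 3.56 in WT, against 1.21 in TKO, and without a stated strand setting their reads cannot be told apart. The same holds, among others, for ANKRD37 and UFSP2, for SLC16A3 and CSNK1D, and for PFKM and SENP1. It also holds for BNIP3L, which shares 330 exonic bases with PNMA2. PNMA2 averaged 1.40 FPKM in D1240A, 1.87 in F1295A and 2.75 in WT, against 0.0433 in TKO.

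Regulators of glycolysis included the largest rise of the set on the log2(FPKM + 0.5) scale, that of PFKFB4 in WT against TKO. PFKFB4, a bifunctional enzyme that sets the level of the main allosteric activator of phosphofructokinase, lies on chromosome 3 (48517684 to 48562015). It measured 1.40, 1.59 and 1.35 FPKM in D1240A, 0.738, 0.763 and 0.907 FPKM in F1295A, 2.20, 2.23 and 2.56 FPKM in WT, and 0.258, 0.221 and 0.2599 FPKM in TKO. The 4 groups did not overlap, in the order WT, D1240A, F1295A, TKO. PFKFB4 rose by 1.92 ± 0.11 in WT (adjusted p = 4.1e-08), 1.38 ± 0.11 in D1240A (adjusted p = 8.4e-07) and 0.80 ± 0.11 in F1295A (adjusted p = 6.6e-05) against TKO. PFKFB4 passed the filter through the vector lines, so its calls against TKO lend the counts no support. Against WT it fell by 0.54 in D1240A (adjusted p = 0.00447) and by 1.12 in F1295A (adjusted p = 3.8e-04), and D1240A exceeded F1295A by 0.58 ± 0.11 (adjusted p = 0.0113). The size depends on the pseudocount. With a pseudocount of 0.1 the changes from TKO were 2.16 in D1240A and 1.38 in F1295A, and with 1 the F1295A change was 0.53.

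PDK1, the kinase that switches off pyruvate dehydrogenase, measured 15.8, 15.3 and 14.5 FPKM in D1240A, 15.4, 14.6 and 14.4 FPKM in F1295A, 18.8, 19.98 and 21.8 FPKM in WT, and 11.0, 10.9 and 10.9 FPKM in TKO. The mutants overlapped each other and lay wholly between WT and TKO. It rose by 0.85 ± 0.054 in WT against TKO (adjusted p = 1.2e-07) and fell by 0.40 in D1240A (adjusted p = 4.5e-04) and by 0.43 in F1295A (adjusted p = 0.00173) against WT. PFKFB3, the other PFKFB isozyme of the set, measured 16.2, 16.8 and 16.8 FPKM in D1240A, 16.6, 13.6 and 13.3 FPKM in F1295A, 16.4, 17.9 and 17.4 FPKM in WT, and 12.3, 15.7 and 11.9 FPKM in TKO. TKO replicate 2 stood well above the other TKO libraries, F1295A overlapped it, and D1240A and WT lay above all TKO libraries. PFKFB3 rose by 0.37 ± 0.10 in WT against TKO (adjusted p = 0.00887) and did not pass in either mutant against WT. Its call in D1240A against TKO (0.32) was lost without D1240A replicate 3 or TKO replicate 1 or 3 (adjusted p 0.0520 to 0.0860).

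Transporters showed small differences in mixed directions. SLC2A1, the ubiquitous glucose importer GLUT1, measured 12.5, 13.5 and 12.04 FPKM in D1240A, 13.6, 10.4 and 10.4 FPKM in F1295A, 14.5, 13.9 and 14.0 FPKM in WT, and 11.7, 10.8 and 11.7 FPKM in TKO. WT was above every other library, and F1295A replicate 1 stood apart from its group. SLC2A1 rose by 0.30 ± 0.087 in WT against TKO (adjusted p = 0.0140), a call lost without TKO replicate 2 (0.26, adjusted p = 0.0545). F1295A against WT was -0.30 (adjusted p = 0.102) with all libraries and -0.42 (adjusted p = 0.00665) without F1295A replicate 1. SLC2A3, a glucose importer with high affinity, was low, at 0.807 to 1.59 FPKM, and rose in D1240A against TKO (0.55 ± 0.12, adjusted p = 0.00271). SLC16A3, a lactate exporter, ranged over 2.38 to 4.54 FPKM and was called lower in D1240A (-0.49) and F1295A (-0.39) against TKO, where the groups did not overlap. The D1240A call was lost without D1240A replicate 3 or TKO replicate 3 (adjusted p 0.0612 and 0.0575). The F1295A call was lost without D1240A replicate 1, F1295A replicate 1 or 2, WT replicate 2 or any TKO library (adjusted p 0.0517 to 0.165), and also with no filter on low values (adjusted p = 0.0964).

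Most glycolytic enzymes were higher in WT than in TKO, those called by log2 changes of 0.11 (TPI1) to 1.82 (ALDOC). In WT against TKO, 13 of the 16 were called higher and none lower by limma (group median 0.32), where 25.9% of all tested genes were higher and 23.9% lower. There, 15 of the 16 had an unadjusted p under 0.05 in either direction, against 7960 of all 14391 tested genes. D1240A and F1295A each had 9 higher and 1 lower against TKO (backgrounds 23.3% and 21.2% in D1240A, 23.9% and 21.8% in F1295A). Against WT, 12 were called lower in D1240A (background 10.9%) and 7 in F1295A (background 1.81%), and none higher. The levels of the 16 summed to 10610.1 ± 356 FPKM in D1240A, 11103 ± 78.7 in F1295A and 12169 ± 227 in WT, against 8833 ± 264 in TKO. No enzyme was called between D1240A and F1295A by limma, where 6.09% of all tested genes were. Of the 16, 6 had an unadjusted p under 0.05, against 3248 of all 14391 tested genes. Of the 7 calls in F1295A against WT, those of GPI, PFKP, ALDOA and PGAM1 were lost in at least 1 refit that left out a library, F1295A replicate 2 and WT replicate 1 in each case (adjusted p 0.0598 to 0.141 without either). HK2, ALDOC and LDHA kept theirs.

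ALDOC, the brain-type aldolase on chromosome 17 (28573115 to 28577264), changed most. It measured 21.0, 19.7 and 23.0 FPKM in D1240A, 19.0, 19.7 and 20.2 FPKM in F1295A, 27.0, 25.2 and 28.8 FPKM in WT, and 7.16, 7.93 and 6.77 FPKM in TKO. WT lay above the overlapping mutants, and TKO far below all vector lines. ALDOC rose by 1.48 ± 0.070 in D1240A (adjusted p = 1.7e-08), 1.37 ± 0.070 in F1295A (adjusted p = 2.9e-08) and 1.82 ± 0.070 in WT (adjusted p = 2.1e-09) against TKO. Against WT it fell by 0.34 in D1240A (adjusted p = 0.00636) and by 0.45 in F1295A (adjusted p = 0.00699). Within the aldolases its share of FPKM was 1.04% ± 0.0888 in D1240A, 0.908% ± 0.0217 in F1295A and 1.09% ± 0.0817 in WT, against 0.456% ± 0.0410 in TKO, ALDOA being the rest of the measured pair.

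ALDOA, the main aldolase, measured 2104, 1984 and 1998 FPKM in D1240A, 2129, 2112 and 2179.8 FPKM in F1295A, 2539, 2427 and 2409 FPKM in WT, and 1554, 1592 and 1629 FPKM in TKO. WT was the highest group and TKO the lowest, with no overlap between the groups. ALDOA rose by 0.63 ± 0.035 in WT against TKO (adjusted p = 4.2e-08) and fell by 0.28 in D1240A (adjusted p = 2.7e-04) and by 0.20 in F1295A (adjusted p = 0.0116) against WT. ENO1, the main enolase, measured 1871, 1767 and 1771 FPKM in D1240A, 1896, 1916 and 1918 FPKM in F1295A, 2155, 2088 and 2047 FPKM in WT, and 1220.0, 1241 and 1337 FPKM in TKO. The 4 groups did not overlap. ENO1 rose by 0.73 ± 0.039 in WT against TKO (adjusted p = 3.5e-08) and fell by 0.22 in D1240A against WT (adjusted p = 0.00286), while F1295A against WT was -0.13 ± 0.039 (adjusted p = 0.104).

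GAPDH, often used as a reference gene, was the most abundant of the set. It measured 3346, 3127 and 3143 FPKM in D1240A, 3324, 3419 and 3415 FPKM in F1295A, 3651, 3598 and 3509.7 FPKM in WT, and 2248, 2366 and 2399.9 FPKM in TKO. WT was highest, the mutants overlapped just below it, and TKO lay far below. GAPDH rose by 0.46 ± 0.038 in D1240A (adjusted p = 1.6e-06), 0.53 ± 0.038 in F1295A (adjusted p = 3.8e-07) and 0.62 ± 0.038 in WT (adjusted p = 9.4e-08) against TKO, and fell by 0.16 in D1240A against WT (adjusted p = 0.0115). Among the other enzymes, HK1 and HK2, the hexokinases that trap glucose, rose in WT against TKO by 0.70 ± 0.079 and 0.68 ± 0.043, and HK2 made up 82.4% ± 1.31 of hexokinase FPKM in D1240A, 81.6% ± 1.05 in F1295A and 83.7% ± 0.655 in WT, against 84.6% ± 1.21 in TKO. LDHA, which turns pyruvate into lactate, rose by 0.25 ± 0.030 in WT against TKO and fell to 764 ± 22.8 FPKM in D1240A and 810.5 ± 16.3 FPKM in F1295A, against 940 ± 22.7 FPKM in WT. LDHA passed against TKO in neither mutant (-0.05 in D1240A and 0.03 in F1295A). GPI, PFKP, PGAM1 and PKM, which act at intermediate and final steps, rose by 0.17 to 0.40 in WT against TKO, ENO2, the neuronal enolase, rose by 0.69 ± 0.11, and TPI1, the triose phosphate isomerase, rose by 0.11 ± 0.039 in a call lost without WT replicate 1 or 2 or TKO replicate 1 or 2 (adjusted p 0.0599 to 0.126). The TPI1 call was also lost with median-ratio scaling (adjusted p = 0.0539), the values as deposited (adjusted p = 0.552), no filter (adjusted p = 0.0606) and neighbour medians removed (0.05, adjusted p = 0.327).

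**Figure D4:**
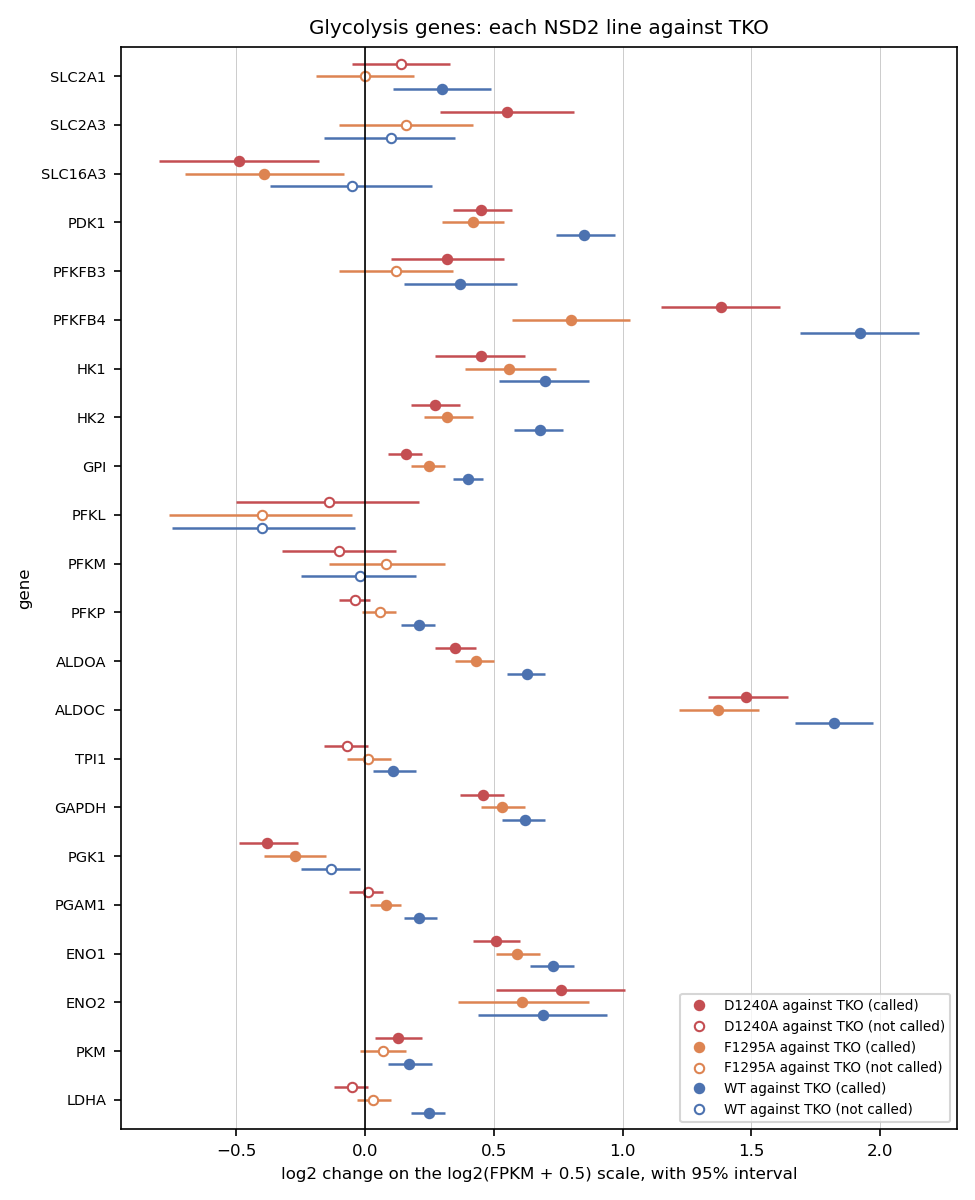
Log2 change against TKO with its 95% interval for the 22 glycolysis genes, in D1240A, F1295A and WT from top to bottom of each row, filled where called. For most genes the WT point lies furthest right, as for ENO1 (0.51 in D1240A, 0.59 in F1295A, 0.73 in WT). SLC16A3, PFKL and PGK1 lie left of 0.

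PGK1 and PFKL, singled out after their values were seen, were lower in most or all vector-line libraries than in TKO. PGK1, the first ATP-forming enzyme of the pathway, lies on the X chromosome (77910739 to 78129296). It measured 464, 405 and 416 FPKM in D1240A, 443, 485 and 455 FPKM in F1295A, 494, 529 and 493 FPKM in WT, and 533, 557 and 575 FPKM in TKO. All vector lines lay below TKO. PGK1 fell by 0.38 ± 0.054 in D1240A (adjusted p = 1.5e-04) and by 0.27 ± 0.054 in F1295A (adjusted p = 0.00164) against TKO, while WT against TKO was -0.13 ± 0.054 (adjusted p = 0.0584). The WT value passed when D1240A replicate 1 or 2, WT replicate 2 or TKO replicate 1 was left out (adjusted p 0.0231 to 0.0452).

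PFKL, the liver-type phosphofructokinase subunit on chromosome 21 (44300051 to 44327376), measured 81.8, 78.8 and 140.0 FPKM in D1240A, 78.6, 80.6 and 82.5 FPKM in F1295A, 83.4, 79.2 and 80.1 FPKM in WT, and 109, 103 and 109 FPKM in TKO. D1240A replicate 3 stood alone, while every other vector-line library was below TKO. It exceeded the mean of the other D1240A libraries by 0.80 on the log2 scale. The median of the 50 nearest genes averaging at least 1 FPKM as deposited was 0.01 in the same comparison. With all libraries PFKL passed in no comparison (WT against TKO -0.40, adjusted p = 0.0600). Without D1240A replicate 3 it was called lower in D1240A (-0.41, adjusted p = 1.4e-05), F1295A (-0.40, adjusted p = 4.8e-06) and WT (-0.40, adjusted p = 4.5e-06) against TKO. Leaving out D1240A replicate 1 (WT, adjusted p = 0.0493) or replicate 2 (F1295A and WT, adjusted p = 0.0365 and 0.0357) also gave calls, as did library weights (F1295A and WT, adjusted p = 0.0385 and 0.0289) and fits of only the compared groups (F1295A and WT, adjusted p = 4.9e-05 and 5.3e-05). PFKM, the muscle-type subunit, ranged over 73.5 to 106 FPKM and passed in no comparison.

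Whole stretches of chromosomes differed between the vector lines and TKO, and some of the genes lie in them. The median change of the 50 nearest tested genes around PGK1 was -0.45 in D1240A, -0.44 in F1295A and -0.50 in WT against TKO. Around PFKL it was -0.34, -0.30 and -0.45 in the same order. On chromosome 10 the medians were 0.33, 0.31 and 0.33 around BNIP3, 0.39, 0.39 and 0.36 around MXI1, and 0.25, 0.25 and 0.20 around PGAM1, a mutase of lower glycolysis. Around PDK1, on chromosome 2, they were 0.12, 0.20 and 0.24. Around DDIT4 and PFKFB4 in WT against TKO they were -0.02 and -0.03. With these medians removed, PGK1 turned to 0.32 in WT against TKO (adjusted p = 5.1e-04), 0.05 in D1240A and 0.19 in F1295A. BNIP3 dropped to 0.45 in WT, -0.06 in D1240A and -0.05 in F1295A, MXI1 to 0.32 in WT, 0.05 in D1240A and 0.15 in F1295A, GPI to 0.22 in WT, 0.01 in D1240A and 0.09 in F1295A, and PGAM1 to -0.03 in WT, -0.24 in D1240A and -0.18 in F1295A. PDK1 dropped to 0.28 in D1240A and 0.22 in F1295A, and its call in WT against TKO held (adjusted p = 1.3e-06). Of the 31 calls in WT against TKO, 3 were lost this way, as were 6 of 27 in D1240A and 3 of 25 in F1295A, where 2 more turned direction. In the mutants against WT no neighbour median of a member exceeded 0.09 in size, and 2 of 24 calls in D1240A and 2 of 16 in F1295A were lost. The part of these regions in each gene's level was not tested further.

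**Figure D5:**
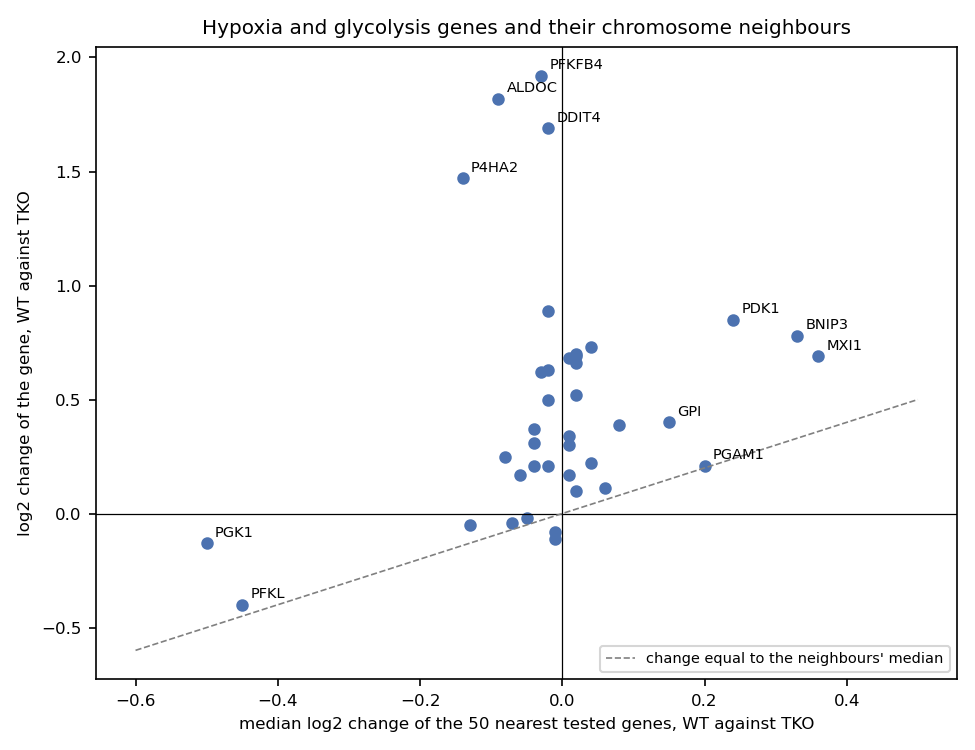
Log2 change of each tested gene in WT against TKO (vertical axis) against the median log2 change of its 50 nearest tested genes on the chromosome (horizontal axis), with a dashed line of equality. ADM, at -2.79, is not drawn. PFKFB4, ALDOC, DDIT4 and P4HA2 stand high above neighbours near 0, while PGK1 and PFKL lie at neighbour medians of -0.50 and -0.45.

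Other genes of the same pathways were called in both directions. Of 40 further hypoxia targets, 29 were tested, and 14 were called higher and 6 lower in WT against TKO (median 0.14), where 25.9% of all tested genes were higher and 23.9% lower. The count of lower calls was near that background. AK4, PLOD2, IGFBP3 and VLDLR reached 0.5 FPKM in no TKO library and passed the filter through the vector lines, so their calls against TKO lend the count no support. PLOD2, a lysyl hydroxylase of collagen, averaged 8.88 ± 0.751 FPKM in D1240A, 9.73 ± 0.546 in F1295A and 10.8 ± 0.622 in WT, against 0.105 ± 0.0627 in TKO. STC2, a secreted glycoprotein, averaged 6.20 ± 1.65, 6.80 ± 0.799 and 11.2 ± 0.483 FPKM in D1240A, F1295A and WT, against 0.723 ± 0.284 in TKO. In the opposite direction, HMOX1, the haem-degrading oxygenase, and CXCR4, a chemokine receptor, fell by 1.39 and by 1.13 in WT against TKO. In F1295A against WT, 5 of the 29 were called lower, where 1.81% of all tested genes were, and none higher, where 0.896% were. In limma, 12 of the 29 had an unadjusted p under 0.05, against 2330 of all 14391 tested genes. VLDLR, a lipoprotein receptor, fell to 0.914 ± 0.0791 FPKM in D1240A and 1.01 ± 0.0887 FPKM in F1295A, against 2.37 ± 0.146 FPKM in WT. Of 32 further genes of glycolysis and pyruvate use, 20 were tested, with 8 higher and 6 lower in WT against TKO (median -0.03), against the same backgrounds of 25.9% and 23.9%. ENO3, the muscle enolase, fell by 1.35, and PDHA1, a subunit of pyruvate dehydrogenase, by 0.96. None of the 20 was called in F1295A against WT by limma, which is near the background of 2.71% in either direction. An unadjusted p under 0.05 was found for 3 of the 20, against 2330 of all 14391 tested genes. Of 17 genes of the TCA cycle, 6 were called higher and 6 lower in WT against TKO, against the same backgrounds. In F1295A against WT no TCA cycle gene was called by limma, again near the background of 2.71%, and 0 had an unadjusted p under 0.05.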

How the data were processed

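Gene expression was measured by RNA-seq of polyadenylated RNA in 12 libraries, 4 groups of 3 biological replicates. The authors deposited FPKM values for 60504 features with 2 decimals. Per the submitters' processing notes, the tools named were Trimmomatic 0.36, FastQC 0.11.4, STAR 2.7.9a, RSEM 1.3.1 and DESeq2, with GRCh38; the annotation release was not given in the sources used here, nor the strand setting. Of the identifiers, 56996 (94.2%) were in GENCODE 29, which gave positions.

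Structural RNA features (7089) were removed, values were rescaled between libraries by the trimmed mean of log2 ratios (features at 1 FPKM or more on average, 30% trimmed on each side), and genes at 0.5 FPKM or more in at least 3 libraries were tested (14391). limma 3.58.1 in R 4.3.3 was run on log2(FPKM + 0.5) with a variance trend, all 4 groups sharing 1 estimate of spread, and p-values were Benjamini-Hochberg adjusted across the 14391 genes, a call needing no minimum fold. The fit was checked on simulated data. FPKM are not counts, so no count test was run.

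The 43 genes, the other gene lists and the tests were chosen with earlier results of these data known. Values in every library are given for the 4 genes of each role with the smallest adjusted p in WT against TKO, the 4 largest called changes of each comparison, genes called in opposite directions against TKO, and genes changed by at least 0.5 in a mutant against WT; PGK1, PFKL and WSB1 were added after their values were seen. Neighbour medians were taken over the 50 nearest tested genes. Depth was estimated from low FPKM values of genes with 1 transcript and limits the precision of low genes. Alternatives covered scaling, filter, pseudocount, structural RNAs, library weights, a replicate block, neighbour medians, fits of only the compared groups, and each library left out. The sources used here do not say that replicates came from separate cultures beyond calling them biological. No 2 libraries were identical (0 pairs). Replicate numbers were not used to pair the samples in the main fit. Promoter windows came from RefSeq. One further gene list is not reported here.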

Additional observations from a re-analysis of the deposited data

How the results depend on the processing

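Counts of called hypoxia and glycolysis genes moved by at most 1.5 times under median-ratio scaling, a filter at 1 FPKM, pseudocounts of 0.1 and 1, and with structural RNAs kept. In the main fit the log2 scaling factor was -0.3 for D1240A replicate 2 and 0 to 0.06 for the other libraries. With values as deposited, in which no library is rescaled, calls fell to 13 higher in D1240A against TKO, 0 higher in D1240A against WT, 5 lower in F1295A against WT and 0 higher in D1240A against F1295A. All genes then called numbered 89 in F1295A against WT and 63 in D1240A against F1295A, against 390 and 877 after rescaling. The part of D1240A replicate 2 in these drops was not tested. The median of all genes shifted to -0.12 in D1240A against TKO, -0.10 in D1240A against WT and -0.08 in D1240A against F1295A, and the share of all calls that were higher was 29.4% as deposited against 52.4% rescaled in D1240A against TKO, 15.5% against 42.9% in D1240A against WT, and 19.1% against 33.1% in F1295A against WT. PKM in D1240A against TKO was -0.02 as deposited. Without a filter, 1 gene was called higher in D1240A against WT. Library weights, and fits of only the compared groups, each called 3 genes lower in WT against TKO, and fits of only the compared groups called 1 gene higher in D1240A against F1295A.

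With neighbour medians removed, signs turned for PGK1 (0.05 in D1240A, 0.19 in F1295A and 0.32 in WT against TKO), PGAM1 (-0.24 in D1240A, -0.18 in F1295A and -0.03 in WT) and BNIP3 (-0.06 in D1240A and -0.05 in F1295A), and 1 gene was called lower in D1240A against F1295A.

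Leaving out each library gave 20 to 25 higher and 2 to 4 lower in D1240A against TKO, 17 to 19 and 4 to 7 in F1295A against TKO, and 27 to 31 and 1 to 3 in WT against TKO. It gave 1 to 3 higher and 19 to 22 lower in D1240A against WT, 0 to 0 and 10 to 17 in F1295A against WT, and 2 to 5 and 0 to 0 in D1240A against F1295A. The 3 lower calls in WT against TKO came without D1240A replicate 1 or 2 or TKO replicate 1, and the single higher call in D1240A against WT without D1240A replicate 3.

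Replicate numbers were not used to pair the samples in the main fit. Correlations of deviations were small, -0.05 to 0.09 over 18 pairs with the same number and -0.11 to 0.08 over 36 pairs with different numbers. In D1240A with F1295A, D1240A with TKO and WT with TKO, every same-number value exceeded every different-number value. In the other pairs of groups they overlapped. With a replicate block the counts were 24 higher and 3 lower in D1240A against TKO, 18 and 6 in F1295A against TKO, 30 and 1 in WT against TKO, 2 and 20 in D1240A against WT, 14 lower in F1295A against WT, and 4 higher in D1240A against F1295A. Causes of these changes were not tested beyond what each setting alters. Depth limits the precision of low genes, 1 fragment per kilobase being worth 0.0166 to 0.0304 FPKM.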
